A study of Homo sapiens with 6 samples.

Results

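HMG (high-mobility group) proteins and their relatives that bind cisplatin-modified DNA were examined at the level of messenger RNA in A549 cells, an established human lung adenocarcinoma line. The genes were chosen by name, from what is known of their proteins, as HMGB1, HMGB2, HMGB3, SSRP1, SUPT16H, HMGA1, HMGA2, HMGN1, HMGN2 and UBTF. Earlier results of these data were known when the choice was made. Of these 10 genes, 9 had a probe set that the probe table of the array pairs with that gene alone, 1 probe set each, among 8746 probe sets besides controls. HMGB2 had none and was not analysed here. All 9 were bright enough to be among the 6559 probe sets tested, which stand for 5816 named genes. Cells of the cisplatin group spent 1 hour in medium with 50 µM cisplatin, and cells of the control group spent that hour in medium without the drug. RNA was extracted after a further 10 hours without drug in both groups. Each group had 3 arrays, which the series description assigns to 3 independent experiments. The values are linear intensities of probe sets.

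Cisplatin forms crosslinks between neighbouring guanines that bend the DNA helix. Proteins with an HMG box, a fold that binds bent DNA in its minor groove, recognise such crosslinks, and HMGB1 is the best studied of them. SSRP1 carries an HMG box and forms, with SUPT16H, the histone chaperone FACT, while UBTF uses several HMG boxes to activate ribosomal RNA genes and can be drawn away from them by platinum adducts. The HMGA proteins bind AT-rich DNA through AT-hooks and the HMGN proteins bind nucleosomes, so they share the family name but have no HMG box.

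The arrays had median intensities between 57.2 and 67.2, and their number limits the precision of every value. On the first principal component of the tested probe sets, which held 39.9% of the variance, cisplatin 2 (17.1) and control 1 (14.4) stood apart from the other 4 arrays (-12.4 to -1.69). Fits without these 2 arrays leave them out because of these same values, so p-values from such fits are given only as description. The drug response was visible in CDKN1A, an inhibitor of cyclin-dependent kinases induced by DNA damage, which rose 5.35-fold (adjusted p = 4.74e-06 in limma). Of 11 epithelial and A549 marker genes 10 were tested, of which 0 passed and 0 were under an unadjusted p of 0.05 in limma; the keratin genes KRT7 and KRT19, with the lowest unadjusted p, had log2 folds of -0.20 and 0.12. The A549 enzymes AKR1B10, AKR1C1 and ALDH1A1 had control means of 5818, 4288 and 3775, whereas the epithelial adhesion genes CDH1 and EPCAM gave low signals, with control means of 37.3 and 33.3 that need not lie above background. Of 12 markers of blood, endothelial and stromal cells 6 were tested, and 0 passed. In that list ACTA2, a smooth muscle actin gene, had a log2 fold of 0.47 with groups that did not overlap (unadjusted p = 0.0135, adjusted p = 0.664 in limma), and CD3E, a T cell gene, had 0.18. Groups did not overlap for 11.0% of all tested probe sets. The probe sets of PTPRC, VWF, CDH5 and COL3A1 lay below the filter on dim probe sets, with no value above 23.1. Those of the 6 tested markers ran from 157 to 304 (ACTA2), 85.9 to 109 (COL1A1) and 53.8 to 85.6 (PECAM1). CD14 ran from 28.1 to 61.4, CD3E from 27.2 to 55.1 and HBB from 9.53 to 55.8. Without detection calls, whether these signals lay above background is not known here.

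None of the 9 genes passed the threshold in the comparison of cisplatin with control, which was a Benjamini-Hochberg adjusted p of 0.05 in limma over all tested probe sets. The same threshold was passed by 19 of 6559 probe sets, or 0.29%. In limma, 1 of the 9 genes, HMGA2, had an unadjusted p under 0.05, as did 5.03% of all tested probe sets. HMGA2 was also the only one of the 9 whose cisplatin and control values did not overlap, a separation found for 11.0% of all tested probe sets and, in the direction of lower values, for 3.57%. The other 8 genes had fitted log2 folds between -0.10 and 0.09, with unadjusted p-values from 0.275 to 0.942. Over the 9 genes the median log2 fold was -0.05, beside 0.04 over all tested probe sets, with 3 folds above 0 and 6 below. RNA was taken from whole cultures, so a change in some of the cells and a smaller change in all of them cannot be told apart.

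**Figure D1:**
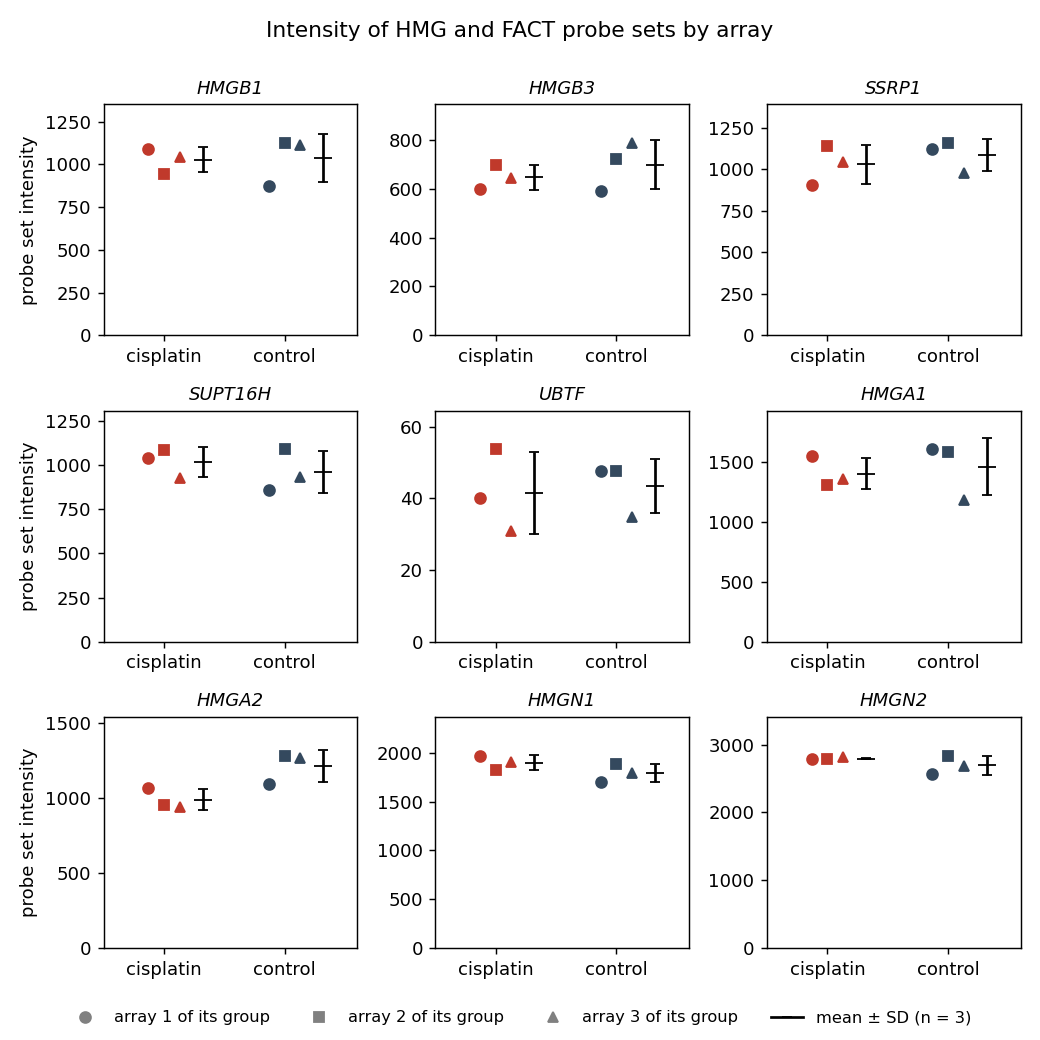
Probe set intensity (linear, from 0) of each gene on the 3 cisplatin arrays and the 3 control arrays, with the mean and SD of each group beside its points (n = 3 each). The groups overlap in 8 of the 9 panels, and in the HMGA2 panel all 3 cisplatin arrays, at 941 to 1070, lie below the control arrays, at 1094 to 1283.

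HMGB1 is an abundant chromatin protein with a pair of HMG boxes and an acidic tail, and its binding to platinum crosslinks is known to shield them from excision repair. Its probe set (200679_x_at) had intensities of 1089, 946 and 1046 on cisplatin 1 to 3, against 875, 1126 and 1113 on control 1 to 3. The lowest values were those of control 1 and cisplatin 2, the arrays that stood apart, and the groups overlapped. Means were 1027 ± 73.5 after cisplatin and 1038 ± 141 in control cells (SD, n = 3 each). The log2 fold was -0.01 with a 95% interval of -0.27 to 0.25, that is, a ratio between 0.831 and 1.19. Without control 1 and cisplatin 2 it was -0.07 (unadjusted p = 0.447 and adjusted p = 0.902 in limma).

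HMGB3, a paralog of HMGB1 known from blood stem cells, was measured by probe set 203744_at. Its intensities were 597, 699 and 646 on cisplatin 1 to 3, against 590, 720 and 788 on control 1 to 3. Control 1 held the lowest value and control 3 the highest, so the control range enclosed all 3 cisplatin values. The log2 fold was -0.10 (95% interval -0.38 to 0.18). Leaving out 1 array it ranged from -0.22 without control 1 to -0.01 without control 3. Without control 1 and cisplatin 2 the log2 fold was -0.27, with an unadjusted p of 0.0251 and an adjusted p of 0.577 in limma. In that fit of 4 arrays, the share of all tested probe sets with an unadjusted p below 0.05 was 7.14%.

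The 3 genes whose values over the 6 arrays lay closest to those of HMGB1 were NFYB, a subunit of the CCAAT-binding factor NF-Y, the lactate dehydrogenase gene LDHB and DUS4L, which encodes a tRNA-modifying enzyme. After centring each gene on its own mean, they differed from HMGB1 by a root mean square of 0.02 (NFYB), 0.03 (LDHB) and 0.03 (DUS4L) on the log2 scale over 6 arrays, where the median over 5815 genes was 0.21. LDHB had intensities of 5286, 4456 and 4877 on cisplatin 1 to 3, against 4192, 5193 and 5122 on control 1 to 3. NFYB, LDHB and DUS4L, like HMGB1, were lowest on control 1 and second lowest on cisplatin 2, and their log2 folds were -0.04, 0.01 and -0.01. They were selected for their likeness to HMGB1 on the same 6 arrays, so the shared order and the small folds follow from that choice.

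SSRP1 is the FACT subunit that contacts DNA through its HMG box and recognises cisplatin crosslinks. On cisplatin 1 to 3 its intensities were 906, 1138 and 1045, against 1126, 1160 and 975 on control 1 to 3 (200957_s_at). The lowest value was that of cisplatin 1, the highest that of control 2, and the groups overlapped. The log2 fold was -0.08 (95% interval -0.33 to 0.17). SUPT16H encodes the larger FACT subunit, which binds histones. It had intensities of 1038, 1088 and 926 on cisplatin 1 to 3, against 856, 1089 and 934 on control 1 to 3 (217815_at). Its highest values, on cisplatin 2 and control 2, were nearly equal, and its log2 fold was 0.09 (95% interval -0.16 to 0.33). Without control 1 and cisplatin 2 the fold of SUPT16H turned to -0.04, and that of SSRP1 was -0.13.

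Taken within each array, the log2 difference between both FACT subunits is unchanged by a shift common to all log2 values of that array. Other scaling, such as quantile normalization, can change it. The log2 intensity of SSRP1 minus that of SUPT16H was -0.19, 0.06 and 0.17 on cisplatin 1 to 3, against 0.39, 0.09 and 0.06 on control 1 to 3. It averaged 0.01 ± 0.19 after cisplatin and 0.18 ± 0.18 in control cells (SD, n = 3 each), so the shift of -0.17 was within the spread of either group.

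UBTF, the RNA polymerase I factor, gave a low signal (202692_s_at), with intensities of 40.2, 53.7 and 30.8 on cisplatin 1 to 3, against 47.8, 47.7 and 34.9 on control 1 to 3. Cisplatin 2 gave the highest and cisplatin 3 the lowest value, so the cisplatin range enclosed the control range. The log2 fold was -0.06 (95% interval -0.52 to 0.39), the widest interval among the 9 genes. The offset of 11.8 added before log2 makes up a good part of signals of this size, and with an offset of 1 the log2 fold was -0.08. The file gives no detection call, so whether this probe set was above background is not known here.

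HMGA1 encodes an AT-hook protein that is abundant in many tumours. Its probe set (206074_s_at) read 1551, 1305 and 1354 on cisplatin 1 to 3, against 1606, 1587 and 1184 on control 1 to 3. Control arrays gave both the highest and the lowest value, and the log2 fold was -0.05 (95% interval -0.33 to 0.24). Without control 1 and cisplatin 2 it was 0.08.

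HMGA2, the second AT-hook gene, is expressed in embryonic tissue and re-expressed in many carcinomas. Its intensities were 1070, 956 and 941 on cisplatin 1 to 3, against 1094, 1283 and 1266 on control 1 to 3 (208025_s_at). All 3 cisplatin values lay below all 3 control values, and the gap between the nearest arrays, cisplatin 1 and control 1, was small beside the spread within groups. Means were 989 ± 70.9 after cisplatin and 1214 ± 105 in control cells (SD, n = 3 each). The log2 fold was -0.29 (SE 0.10, 95% interval -0.51 to -0.07), a ratio of 0.817, with an unadjusted p of 0.0138 and an adjusted p of 0.664 in limma, so it did not pass. A lower value with unadjusted p under 0.05 was found for 1.63% of all tested probe sets. Without control 1 and cisplatin 2 the log2 fold was -0.34 (unadjusted p = 0.00467, adjusted p = 0.309 in limma). In that fit 7.14% of all tested probe sets had an unadjusted p below 0.05.

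Within each array, the log2 intensity of HMGA2 minus that of HMGA1 was -0.53, -0.44 and -0.52 on cisplatin 1 to 3, against -0.55, -0.30 and 0.10 on control 1 to 3. Control 1 lay below all 3 cisplatin arrays, and the groups overlapped. The difference averaged -0.50 ± 0.05 after cisplatin and -0.25 ± 0.33 in control cells (SD, n = 3 each), with control 3, where HMGA1 was lowest, setting most of the control spread.

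HMGN1 and HMGN2 encode small nucleosome-binding proteins that loosen chromatin, and HMGN1 is known from mouse cells to aid excision repair of ultraviolet damage. HMGN1 had intensities of 1972, 1823 and 1909 on cisplatin 1 to 3, against 1698, 1888 and 1793 on control 1 to 3 (200944_s_at). HMGN2 had 2787, 2785 and 2810 on cisplatin 1 to 3, against 2562, 2836 and 2678 on control 1 to 3 (208668_x_at). Control 1 was lowest for both genes and the groups overlapped, with a log2 fold of 0.08 for HMGN1 (95% interval -0.08 to 0.25) and 0.05 for HMGN2 (95% interval -0.09 to 0.19). The within-array difference of HMGN2 from HMGN1 averaged 0.55 ± 0.06 after cisplatin and 0.58 ± 0.01 in control cells (log2, SD, n = 3 each). HMGN2 changed sign, to -0.02, when the arrays were centred on their medians.

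**Figure D2:**
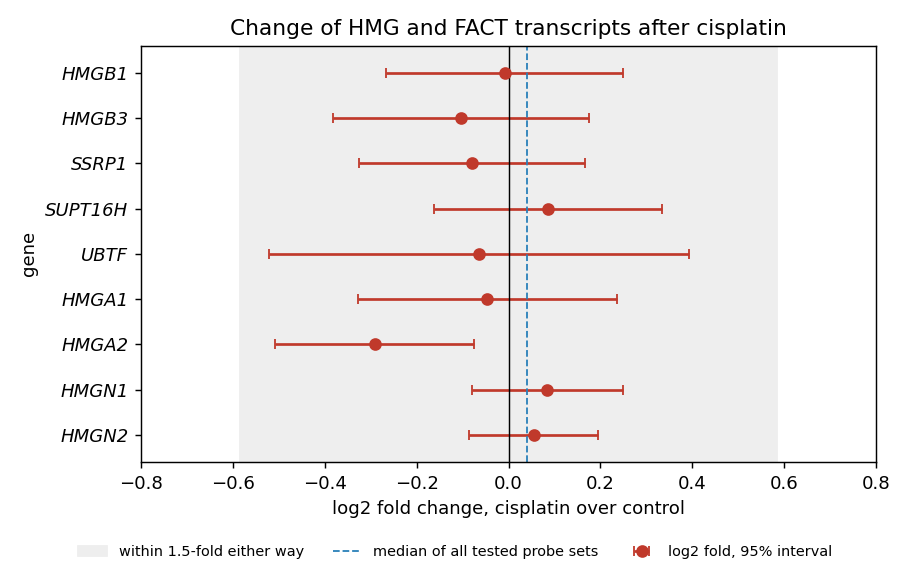
Log2 fold change of each gene, cisplatin over control, with its 95% interval from limma (n = 3 arrays each); the grey band marks changes of less than 1.5-fold either way and the dashed line the median of all tested probe sets, 0.04. All 9 intervals of this fit lie inside the band, and only that of HMGA2 (-0.51 to -0.07) does not include 0; under other settings the intervals of UBTF and HMGA2 reach past the band, to -0.70 and -0.62.

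The intervals give the range of changes that the fit left possible. With all 6 arrays as deposited and the offset of 11.8, the 95% interval of each of the 9 genes lay wholly within a 1.5-fold change in either direction, as it did for 66.5% of all tested probe sets. For 7 of the 9 genes, all but UBTF and HMGA2, this held under all 15 alternative settings as well. The interval of UBTF passed the bound in 5 of its 14 alternatives, reaching -0.66 on the log2 scale with an offset of 1 and -0.70 without control 3. That of HMGA2 passed it in 2 of 15, reaching -0.62 with arrays centred on the median and -0.60 without cisplatin 1. The median standard error on the log2 scale was 0.11 for the 9 genes and 0.17 for all tested probe sets. These intervals cover 1 gene at a time and were not adjusted for their number.

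The 9 genes also varied between arrays of the same group. On control 2 all 9 genes lay above their own mean over the 6 arrays, with a median deviation of 0.14 on the log2 scale. On control 1 the median deviation was -0.10, with 6 of 9 genes below their mean, and over the other 4 arrays it ran from -0.05 to 0.02. The arrays were not rescaled. Over all probe sets besides controls, the upper quartile of log2 intensity was 7.82 on control 2 and 7.66, the lowest, on control 1. It was also 7.82 on cisplatin 1, and from 7.73 to 7.77 on the remaining arrays. Whether the 9 genes deviated more than other probe sets of similar intensity was not tested. UBTF had the widest deviations, from -0.34 on cisplatin 3 to 0.29 on cisplatin 2, and HMGN2 the narrowest, from -0.10 on control 1 to 0.05 on control 2.

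**Figure D3:**
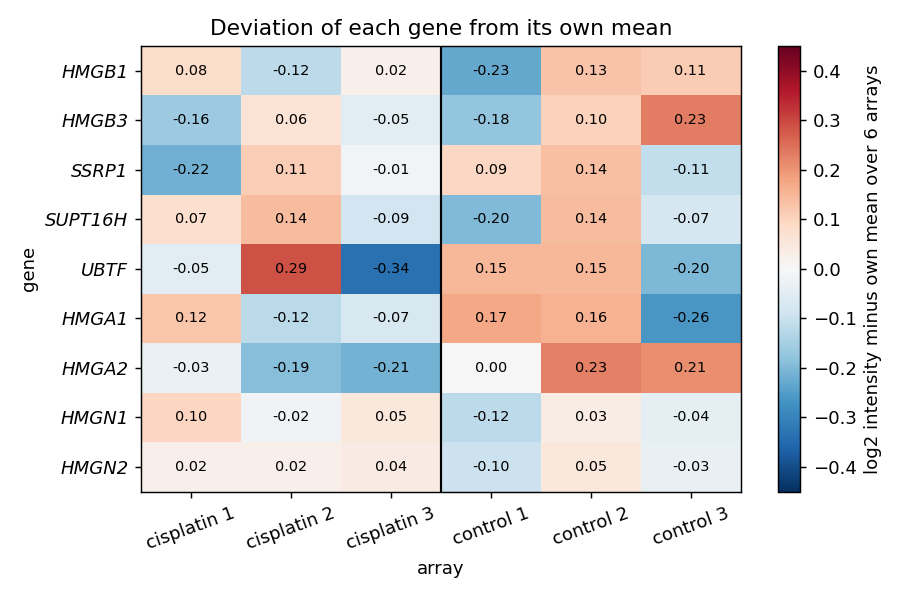
Log2 intensity of each gene on each array minus that gene's own mean over the 6 arrays (colour and printed value), with the cisplatin arrays left of the line and the control arrays right of it. The column of control 2 is above 0 for all 9 genes, on arrays that were not rescaled and without a count over all probe sets beside it. HMGA2 is the only row in which every cisplatin value is below every control value.

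Several of these genes have many pseudogenes, which matters for what a probe set can tell apart. The RefSeq annotation names 50 pseudogenes after HMGB1, 48 after HMGN2, 38 after HMGN1 and 32 after HMGB3, against 8 after HMGA1, 1 after SUPT16H and 0 after SSRP1, HMGA2 and UBTF. The ending _x_at of the HMGB1 and HMGN2 probe sets marks probes that may also match other transcripts, so their values can include signal from such copies. Whether probes of the other genes also match such copies was not tested.

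Genes related to these in structure or function were taken as lists. Of 28 other HMG-box and HMGN genes 10 were tested, of which 0 passed. An unadjusted p below 0.05 in limma was reached by 1 of them, beside 5.03% of all tested probe sets. Their median log2 fold was 0.003. SOX9, an HMG-box transcription factor of lung progenitors, had intensities of 210, 186 and 232 on cisplatin 1 to 3, against 257, 269 and 270 on control 1 to 3. The groups of SOX9 did not overlap, as was so for 3 of the 10 tested genes and for 11.0% of all tested probe sets. Its log2 fold was -0.33 (unadjusted p = 0.0248, adjusted p = 0.797 in limma). SOX13, a related factor, had a log2 fold of 0.23 and an unadjusted p of 0.218 in limma, at intensities of 23.7 to 37.9.

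Among other proteins that bind platinum-damaged DNA, 2 of 19 tested genes passed the threshold, both higher, beside 0.29% of all tested probe sets. DDB2 and XPC, damage sensors of nucleotide excision repair, rose by 1.05 and 1.00 on the log2 scale (adjusted p = 0.00320 and 0.0149 in limma), and whether their change differed from that of the HMG genes was not tested. XPC lost its call in the fits without cisplatin 1, 2 or 3 and without control 2, where its adjusted p in limma was 0.0630, 0.0741, 0.137 and 0.0978, and in the fit without an intensity trend, where it was 0.0513. DDB2 passed in all of these fits. Under a block by replicate number, although no label pairs the arrays, neither gene passed. The other 17 genes did not pass and the list median was 0.03, with 11 of the 19 folds above 0 and 8 below. POLB, the polymerase of base excision repair, had a log2 fold of 0.27 (unadjusted p = 0.0405, adjusted p = 0.919 in limma). Its groups did not overlap, as was so for 3 of the 19 genes and for 11.0% of all tested probe sets. RPA1, the large subunit of the single-strand binding protein, had a log2 fold of 0.11.

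Of the partners of FACT and other histone chaperones, 18 of 27 genes were tested. None passed in limma, and 0 reached an unadjusted p below 0.05. The median log2 fold was 0.02, with 13 folds above 0 and 5 below. CHAF1B, a subunit of the chromatin assembly factor CAF-1, had intensities of 169, 176 and 168 on cisplatin 1 to 3, against 153, 146 and 143 on control 1 to 3, with a log2 fold of 0.20 (unadjusted p = 0.128 in limma). Its groups did not overlap, as was so for 3 of the 18 genes and for 11.0% of all tested probe sets. The histone H1 and H3-H4 chaperone NASP had a log2 fold of -0.27, at intensities of 45.8 to 80.0.

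Of 30 genes of RNA polymerase I and ribosomal RNA processing, the pathway that UBTF serves, 16 were tested. None passed, 0 had an unadjusted p under 0.05 in limma, and the median log2 fold was -0.01. POLR1E, a polymerase I subunit, had intensities of 315, 296 and 270 on cisplatin 1 to 3, against 257, 260 and 218 on control 1 to 3. Its groups did not overlap, as was so for 2 of the 16 genes and for 11.0% of all tested probe sets. The log2 fold of POLR1E was 0.25 with an unadjusted p of 0.0743 in limma. PES1, a factor of large-subunit ribosome assembly, had a log2 fold of -0.15.

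HMGB1 can also leave the cell and act on pattern-recognition receptors. Of 17 genes for its receptors, export and partners 11 were tested, with 0 past the threshold and 0 at an unadjusted p below 0.05 in limma, and a median log2 fold of 0.06. MYD88, the adaptor of Toll-like receptors, had a log2 fold of 0.25, and TXN, the thioredoxin gene, 0.11. Of 20 regulators and targets of the HMGA proteins 12 were tested and 0 passed in limma. At an unadjusted p below 0.05 in limma there were 3 of the 12 genes, 1 higher and 2 lower, beside 5.03% of all tested probe sets. The median log2 fold of the list was -0.07. MYC, a known activator of HMGA1, had a log2 fold of -0.59 (adjusted p = 0.193 in limma). ID2, an inhibitor of differentiation factors, had intensities of 399, 319 and 350 on cisplatin 1 to 3, against 464, 477 and 475 on control 1 to 3, with no overlap and a log2 fold of -0.40 (adjusted p = 0.535 in limma). Groups did not overlap for 3 of the 12 genes, beside 11.0% of all tested probe sets.

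Of 20 chromatin genes of the S and G2 phases, 17 were tested. In limma 0 of them passed, and 0 reached an unadjusted p below 0.05. Their median log2 fold was -0.06, with 5 folds above 0 and 12 below. TOP2A, the topoisomerase of dividing cells, had intensities of 1186, 862 and 745 on cisplatin 1 to 3, against 742, 1303 and 1439 on control 1 to 3. Control 1 was the lowest array for TOP2A, as it was for HMGB1, and without one array its log2 fold of -0.29 ranged from -0.58 to -0.10. It was -0.54 without control 1 and cisplatin 2 together (unadjusted p = 0.0115, adjusted p = 0.465 in limma). MKI67, a proliferation marker, had a log2 fold of -0.46 (unadjusted p = 0.0619 in limma), and its groups overlapped. Leaving out 1 array, the fold of MKI67 ranged from -0.67 without cisplatin 2 to -0.29 without control 2. It was -0.75 without control 1 and cisplatin 2 together (unadjusted p = 0.00257, adjusted p = 0.236 in limma). In the fit without these 2 arrays, 7.14% of all tested probe sets had an unadjusted p below 0.05.

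**Figure D4:**
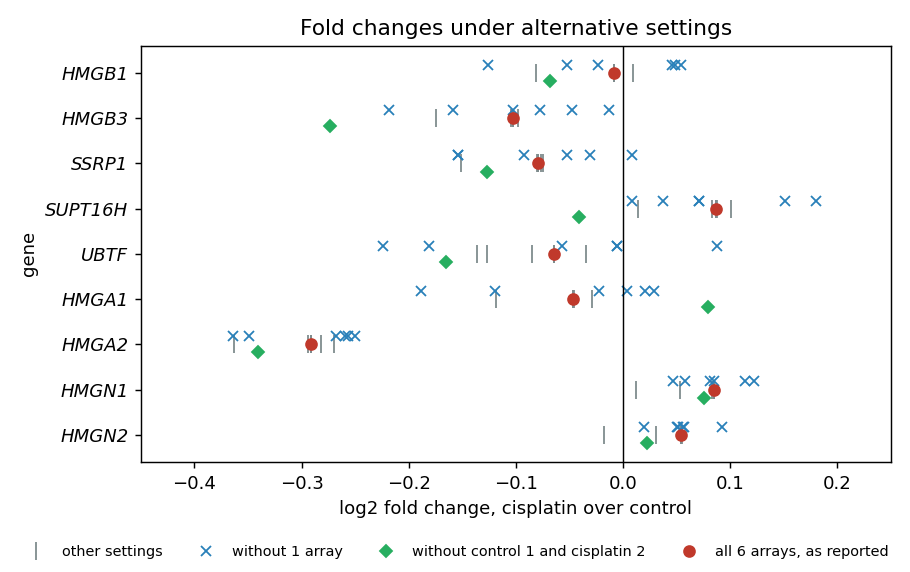
Log2 fold change, cisplatin over control, of each gene with all 6 arrays (filled circles), without 1 array (crosses), without control 1 and cisplatin 2 together (diamonds) and under the other settings (ticks). HMGA2 stays between -0.36 and -0.25, while the values of HMGB1 lie on both sides of 0, from -0.13 to 0.05.

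The direction of HMGA2 was the same under all 15 alternative settings, with a log2 fold between -0.36 and -0.25. As its groups did not overlap, leaving out arrays or changing the offset could not turn its sign. Changes of filter, variance prior or block leave the fold of any gene as it is. For HMGA2 only the changes of scaling could have turned the sign. The unadjusted p of HMGA2 in limma was under 0.05 in 13 of the 15 settings, ranging from 0.00299 to 0.0573 over all of them. Its adjusted p in limma ranged from 0.305 to 0.9998. The settings reuse the same arrays, so their count is not repeated evidence. HMGB1, whose log2 fold ran from -0.13 to 0.05, changed sign in 4 of 15 settings, and HMGA1, from -0.19 to 0.08, also in 4. No gene of the 9 passed the threshold under any of these settings.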

How the data were processed

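The files hold the deposited intensities of 6 one-colour arrays, 1 value per probe set. Of 52758 deposited intensities 723 are 0 or less, so some signal had been subtracted before deposit, of which kind is not known. The software that made them, and any scaling, is not given in the sources used here. Per the labels, cDNA was primed with oligo-dT and the target carried biotin. Negative values were set to 0, and 11.8 (the 10th percentile of positive values) was added before taking log2. The 47 control probe sets were dropped, and the dimmest 25% of the others by mean log2 were not tested. A single symbol was given by the platform's probe table to 7840 of 8746 probe sets, several to 388 and none to 518. RefSeq (GRCh38.p14) served for current names and the names of pseudogenes.

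The test was limma 3.58.1 in R 4.3.3: lmFit, then eBayes with a trend on intensity, two-sided, cisplatin over control, with p-values adjusted by Benjamini-Hochberg over all tested probe sets (threshold 0.05). Fold changes come from that fit, so the offset makes those of dim probe sets too small; means and SD are of the intensities. Data were simulated for 6 arrays with 6559 probe sets, of which 200 were changed. The test found 66.7% of 2-fold and 29.2% of 1.5-fold changes, and 4.77% of its calls were false. The simulated probe sets were drawn independently, without deviations shared across an array. More of them were changed than the 19 called on the real arrays. For both reasons these rates need not hold for the real arrays. The genes and lists were chosen with earlier results of these data known. Named were all genes with a probe set, in each list the genes past the threshold and the 2 others with the lowest unadjusted p (each gene by its brightest probe set), the 3 genes most like HMGB1, and CDKN1A. Markers of A549 and of other cells were named besides for the check of the cells, chosen after their values were seen. Alternatives changed the scaling, offset, filter and variance prior, blocked by replicate number, or left out arrays. matplotlib 3.10.9 (Python 3.11.15) drew the figures.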

Additional observations from a re-analysis of the deposited data

How the results depend on the processing

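Under all 15 alternatives 0 of the 9 genes passed, 8 being tested with the filter at the 50th percentile, where UBTF fell below it. Of 134 values of these genes under alternatives, 12 had the other sign: HMGN2 at -0.017 with arrays centred on the median, HMGB1 at 0.0095 with quantile normalization, SUPT16H at -0.040 and HMGA1 at 0.079 without control 1 and cisplatin 2 together, and the others without 1 array, where log2 folds ran from -0.126 to 0.054 for HMGB1, -0.189 to 0.029 for HMGA1, -0.154 to 0.0087 for SSRP1 and -0.224 to 0.088 for UBTF. CD3E, one of the blood markers, ran from -0.0043 to 0.327. The cause was not tested. Changes of filter, variance prior or block leave each fold as it is, so no sign could turn there. Against 19 probe sets over all genes, 11 passed with arrays centred on the median and 8 without the intensity trend, all among the 19, and 6 to 18 without 1 array (6 without cisplatin 1, 11 without cisplatin 2, 7 without cisplatin 3, 6 without control 2 and 8 without control 3), with fewer arrays in the fit.

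With the replicate block, 5 probe sets and 0 of the 9 genes passed, and HMGA2 had an unadjusted p of 0.0430 and an adjusted p of 1.00 in limma. DDB2 and XPC lost their calls there (adjusted p = 0.0755 and 0.153 in limma), and XPC also without the intensity trend (0.0513). No label ties arrays of one number to one experiment. Over the tested probe sets, the residuals of same-numbered arrays had correlations of -0.56, -0.31 and -0.12 (numbers 1, 2 and 3), and for 0 of 6 arrays was the closest array of the other group the one of its number. Signal over background limits UBTF, whose log2 fold was -0.03 with an offset of 50 and -0.08 with 1.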
